A study of Oryza sativa with 24 samples.

Results

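The last step of rice pollen development was examined by setting mature pollen grains (MPGs) against immature tricellular pollen (TCP), in 6 of the 24 Affymetrix Rice Genome Arrays of a series that covers 5 pollen stages and 3 sporophytic tissues. Both groups came from field-grown *Oryza sativa* ssp. japonica, and the study's methods name the cultivar Zhonghua 10. TCP grains are past the second pollen mitosis and were taken out of anthers by crushing these in cold mannitol and passing the slurry through nylon meshes, whereas MPGs were shed from flowering panicles by gentle shaking after the anthers had opened. Each group has 3 arrays, which the titles name biological replicates, so stage and way of collection cannot be told apart. The age label of TCP carries a remark on dehydration whose wording is unclear, so it is not known from it how far these grains had dried. All 57258 probe sets that are not array controls were read, 47589 had a signal of 100 or more in at least 3 of the 24 arrays and were tested, and 9060 of these had a mean of 1000 or more in TCP or in MPGs. That limit is a filter and not a finding: the brighter mean was 1000.1 in the last probe set inside it and 999.9 in the first one outside. Below, a transcript rose or fell in MPGs where the limma fit passed 0.05 after Benjamini-Hochberg adjustment and the group means of log2(signal + 50) differed by at least 1. In bulk samples of this kind, fewer cells of a type and less RNA per cell cannot be told apart.

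A tricellular grain holds a large vegetative cell, which later grows the pollen tube, and a pair of sperm cells inside it. Between the immature and the shed grain, pollen fills with starch and other stores, dries and becomes dormant, while it keeps a stock of stored transcripts and proteins that allow a tube to emerge soon after landing on a stigma. The cytoskeleton, calcium-dependent kinases, wall-loosening expansins and membrane transporters are known parts of the tube machinery. Ribosomes, the endoplasmic reticulum, mitochondria and starch synthases serve the grain while it is still building up. Protein synthesis is needed later too: the study, citing earlier inhibition experiments, states that germination and early tube growth depend on it.

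The direction of a change depended on how the arrays were scaled, so that is given first. The hybridisation controls are bacterial and phage RNAs added in fixed amounts to each hybridisation mix, and the geometric mean of their 9 probe sets was 4094, 7398 and 6103 in TCP replicates 1 to 3 and 14855, 17511 and 27682 in MPG replicates 1 to 3. All 3 MPG arrays lay above all 3 TCP arrays, with a ratio of group means of 3.41 (two-sided exact permutation p = 0.1, the smallest that 3 against 3 can give). The poly-A controls, bacterial transcripts added to the RNA before labelling, stood at 429, 865 and 1182 in TCP and 1077, 2221 and 14199 in MPGs, so that these groups overlapped and MPG replicate 3 was far above the rest. Every array had been scaled by the authors to a common target. The median signal was nevertheless 105, 96.1 and 63.3 in TCP and 198, 167 and 151 in MPGs, and the untrimmed mean signal was 1030 ± 50.7 (SD, n = 3) against 1770 ± 35.2. The brightest 100 probe sets took a part of the summed signal that no scaling of a whole array changes, and it was 11.5%, 12.7% and 9.43% in TCP and 20.4%, 18.4% and 19.9% in MPGs, again without overlap (exact permutation p = 0.1).

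**Figure D1:**
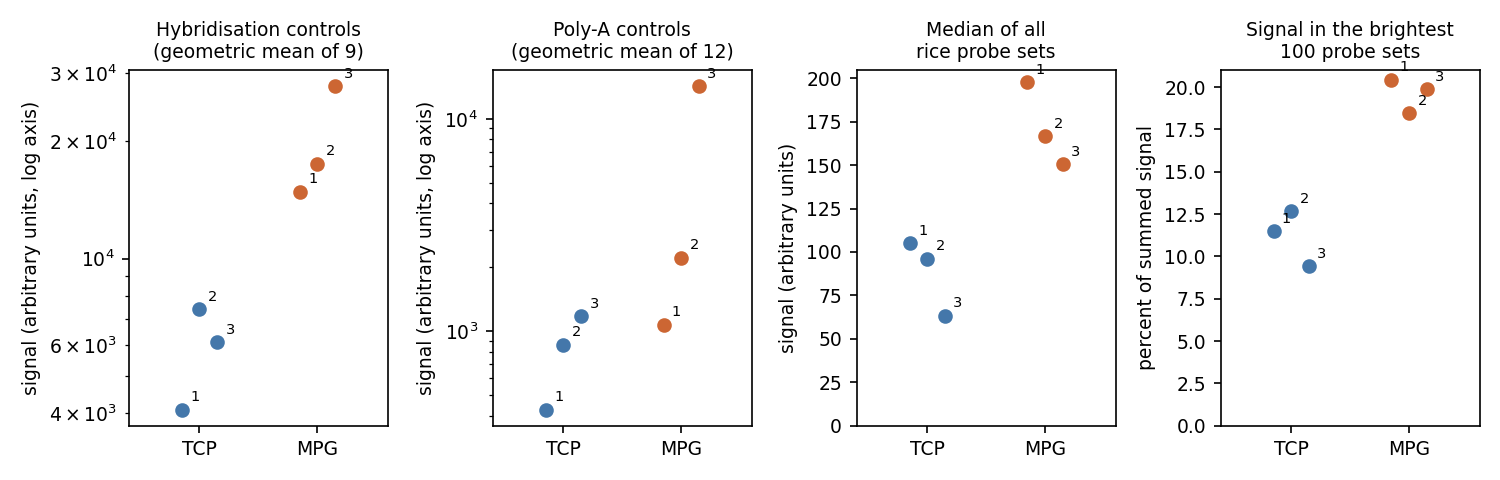
Signal of the hybridisation controls, the poly-A controls and the median rice probe set (arbitrary units, the first 2 on a log axis), and the percent of summed signal in the brightest 100 probe sets. Each point is an array with its replicate number; the 3 MPG arrays lie above the 3 TCP arrays in every panel except that of the poly-A controls, where MPG replicate 3 reaches 14199.

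In the values as deposited 12852 of the 47589 tested probe sets rose (27.0%) and 5641 fell (11.9%). Rises and falls were spread unevenly over brightness. Of the rises 79.6% had a mean under 1000 in both groups, but of the falls only 38.6%. Among the 9060 bright probe sets 2620 rose (28.9%) and 3462 fell (38.2%). In the class with a brighter mean of 2000 to 5000, 20.4% rose and 44.4% fell. Among the 1094 probe sets at 20000 or more the order was turned round, with 64.5% rising and 18.6% falling. With each array scaled to its hybridisation controls 4.75% of the bright probe sets rose and 64.9% fell, with the poly-A controls 1.81% and 60.4%, with the same median on each array 11.8% and 54.0%, and with quantile normalization 26.3% and 33.5%. Over all tested probe sets the rises were 1.34%, 0.416%, 6.29% and 13.1% in these 4 scalings and the falls 27.9%, 22.9%, 20.5% and 15.8%. The median log2 change of the bright probe sets was −0.31 as deposited, −0.10 with quantile normalization and −1.96 with the hybridisation controls.

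**Figure D2:**
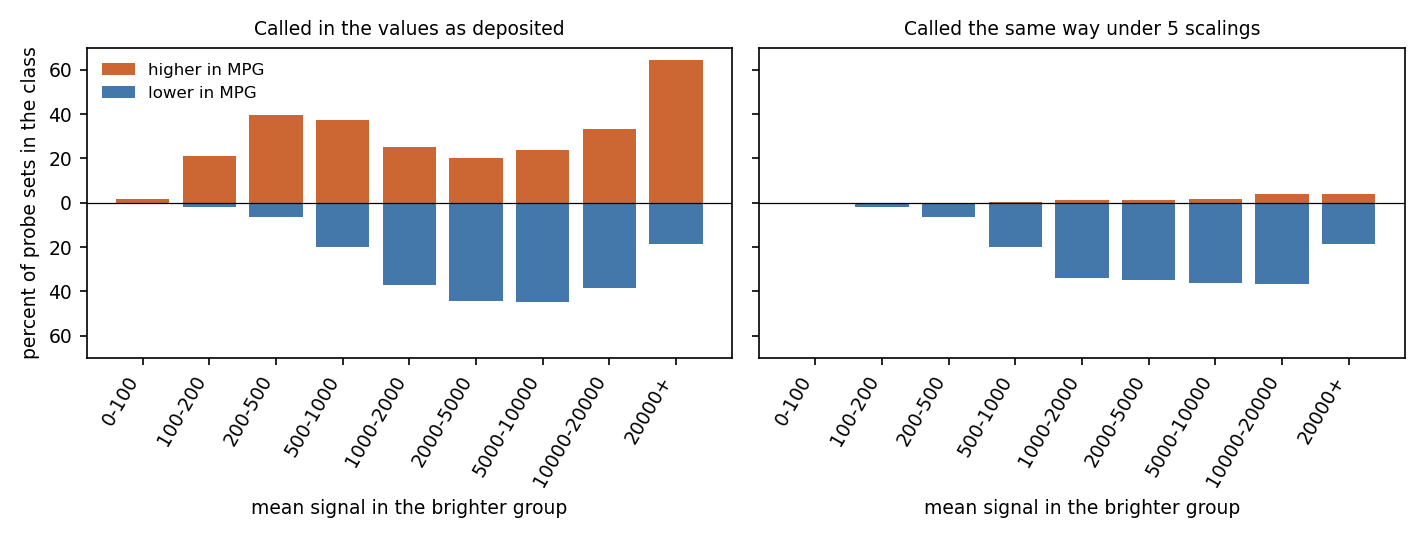
Percent of tested probe sets that rose (above 0) or fell (below 0) in MPGs, by the mean signal in the brighter group, as deposited and for calls made in the same direction under 5 scalings. As deposited, rises outnumber falls in the dim classes and at 20000 or more, and falls outnumber rises from 1000 to 20000; the falls are mostly kept under all 5 scalings and the rises mostly are not.

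A call was therefore termed held where it was made in the same direction under 5 scalings: as deposited, to the hybridisation controls, to the poly-A controls, to the same median and by quantiles. Of the bright probe sets 164 were held rises (1.81%) and 2964 were held falls (32.7%), and over all tested ones 198 (0.416%) and 5138 (10.8%). The hybridisation control, poly-A control and same-median scalings each lower MPGs against TCP. Their median log2 changes of bright probe sets were −1.96, −2.23 and −1.25, against −0.31 as deposited. A fall could hardly be lost in these, and a rise had to be large to be held. The counts of held rises and held falls are therefore not a like comparison. Scaling to the median of bright probe sets raises MPGs against TCP and was not used for held calls. Under it 3291 bright probe sets rose and 2682 fell. These falls are fewer than the 2964 held ones, so some held falls were not called under it. All 3462 bright falls were also called falls with the hybridisation controls. Of the 2620 bright rises 1150 had a negative change there and 0 were called falls. The count of held rises was set by the poly-A controls: without that scaling 430 bright rises (4.75%) and the same number of falls, 2964, were held under the other 4. Leaving out MPG replicate 3, the array with the bright poly-A controls, gave 515 bright held rises, while leaving out MPG replicate 1 or 2 gave 79 and 106. Held rises had a median log2 change of 4.27 (from 3.32 to 6.10), held falls of −2.25 (down to −6.13). Of the 164 held rises 52 were under 200 in every TCP array, and 117 of the 2964 held falls were under 200 in every MPG array.

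Held rises with an informative gene name were few, 15 of 164. The largest among the named ones was PPE, annotated as a ribulose-phosphate 3-epimerase, an enzyme of the pentose phosphate pathway. Its signals were 251, 359.7 and 132 in TCP and 11429, 13874 and 10918 in MPGs, a log2 change of 5.42 ± 0.28 (SE, adjusted p = 1.66e-11) that was still 3.64 with the hybridisation controls. SAP17, of the A20/AN1 zinc finger proteins linked to stress responses, went from 449.9, 1059.9 and 520.3 to 30756, 28865 and 26797 (log2 5.40 ± 0.29). Every MPG array was well above every TCP array in both genes. A relative, SAP11, rose from 167, 232 and 126 to 1612, 1795 and 2477, and this call was held without the poly-A scaling only. PPE and SAP17 were also bright in leaf, with means of 20930 and 4693.

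Hormone genes stood on both sides. The JAZ proteins are repressors of jasmonate signalling, and 3 of them were held rises while another, JAZ12, fell. JAZ13 gave 279, 239 and 222 in TCP and 7281, 7528 and 10359.6 in MPGs. JAZ11 gave 218, 352 and 251 against 10102, 4371 and 10857. JAZ10 gave 1248, 876 and 1066 against 23256, 23979 and 25353. Their log2 changes were 4.82, 4.63 and 4.46, and 3.05, 2.88 and 2.69 with the hybridisation controls. Among these 3 the MPG spread was largest for JAZ11, in which replicate 2 was the low one. JAZ12 fell as deposited from 4440.4, 3501 and 4563.5 to 1199, 966 and 2651, a log2 change of −1.47 that was −3.11 with the hybridisation controls and −0.95, not past the limit, by quantiles. Its adjusted p of 0.0398 was close to the threshold, and the call was lost on leaving out any one array except MPG replicate 3 and with the replicate number as a block. COI1A, the receptor component that binds JAZ proteins, fell from 11518, 9514 and 11066 to 1055, 1554 and 1534 (log2 −2.93 ± 0.19, adjusted p = 2.33e-10). OPR7, an enzyme of jasmonate synthesis, fell as well, from 2169, 1954 and 2178 to 380.1, 213 and 1188. Of the 12 bright probe sets of jasmonate and ethylene genes 7 rose and 4 fell, against 28.9% and 38.2% of all bright probe sets.

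GH3-2, which joins auxin to amino acids, was at 3478, 6559.5 and 3098 in TCP and at 54377, 61497 and 60552 in MPGs. This held rise of 3.81 ± 0.25 in log2 (adjusted p = 2.38e-10) left no overlap, and GH3-2 stood at a mean of 88.4 in the earlier bicellular pollen (BCP). IAA15, of the Aux/IAA repressors of auxin response, was a held fall, from 2374, 2509 and 2349 to 38.8, 162 and 539. ABA1, the zeaxanthin epoxidase on the route to abscisic acid, rose from 21.4, 41.8 and 40 to 1040.2, 1122 and 1063 (log2 3.75 ± 0.21). It was nearly at the floor of the array in TCP, and its MPG signals were close to the 1000 limit. Enzymes of gibberellin synthesis differed. KAO, the kaurenoic acid oxidase, fell from 40405, 44139.6 and 39022 to 6773, 6327 and 10874, and ks1, a kaurene synthase, fell from 3589, 3114 and 3115 to 119.8, 87.3 and 216. Both were held falls, with log2 changes of −2.40 and −4.17. GA20OX3, a gibberellin 20-oxidase, rose as deposited from 1829, 2036 and 1635 to 5695, 6890.5 and 4623, with a log2 change of 1.61 that was 1.55 by quantiles and −0.12 with the hybridisation controls.

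Calcium and phosphorylation genes included both held rises and falls. CML14, a calmodulin-like calcium sensor, was at 21.9, 78.2 and 36.1 in TCP and 1877, 2315 and 3027 in MPGs (log2 4.70 ± 0.31, adjusted p = 2.78e-10). CDPK5, a calcium-dependent protein kinase, went from 98.4, 262 and 201 to 2707, 2437 and 2438. CIPK21, a kinase that pairs with CBL calcium sensors, went from 97.6, 179 and 144 to 1498, 2418 and 2430.1. All 3 were dim in TCP and bright in each MPG array. The sensor CBL4 rose from 1294, 2059.9 and 1547 to 21746, 18256 and 23380.1, held except under the poly-A scaling. CBL9, another sensor of the same family, fell from 4079, 3841 and 3734 to 761, 711 and 945, and the kinase CIPK25 fell from 2335, 1954 and 2424 to 371, 500.1 and 582. Over the list of calcium signalling genes 14 of 34 bright probe sets rose and 14 fell (41.2% each, against 28.9% and 38.2% of all bright probe sets), and 3 rises and 10 falls were held (29.4% held falls, against 32.7%). Their median log2 change was −0.23, close to the −0.31 of all bright probe sets.

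Among adaptors and phosphatases, GF14B, a 14-3-3 protein that binds phosphorylated partners, rose from 239, 681 and 321 to 8453, 10898 and 7622 (log2 4.38 ± 0.27). PP2C78, a type 2C protein phosphatase, rose from 962, 2310 and 1378 to 14996, 23328 and 21549.9 (log2 3.71 ± 0.26). The groups were far apart in both. PP2C47 and PP2C02 of the same family rose with log2 changes of 3.15 and 3.09, and were not held only because of the poly-A scaling. PP2C39 went the opposite way, from 2143, 2141 and 3300.4 to 2.1, 9.2 and 209.8. Of the 21 bright PP2C probe sets 11 rose (52.4%) and 5 fell (23.8%), against 28.9% and 38.2% of all bright ones, and with the hybridisation controls 5 rose and 10 fell. MAPK6, a mitogen-activated protein kinase, was a held fall from 5677, 6779.8 and 6499 to 872, 985 and 1656, while MPK10 rose as deposited from 19063, 20545 and 19087 to 119042, 105546 and 98829.6. For MPK10 the log2 change was 2.46 as deposited and 0.70 with the hybridisation controls, under the limit.

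Of the transcription factors, MADS45, an E-class MADS-box factor known from floral organ identity, was a held rise from 158, 296 and 138 to 4963, 5694 and 3979 (log2 4.36 ± 0.28, adjusted p = 1.61e-10). MADS22, an SVP-type MADS-box factor, was a held fall from 4731, 5134 and 4789 to 646, 613 and 288. SPL15, of the SQUAMOSA promoter-binding proteins, fell from 11687, 10457 and 12184 to 1199, 752 and 1026. MYBS3, a repressor in sugar and cold responses, fell from 3678, 4128 and 3420.2 to 984, 731 and 705. Of 23 bright probe sets of zinc finger factors 12 fell (52.2%), 10 of them held (43.5%), and 3 rose (13.0%), against 38.2%, 32.7% and 28.9% of all bright probe sets. C3H54 fell from 1778, 2276 and 3497 to 111, 152 and 29.1, whereas C3H4 rose from 224, 375 and 448 to 3190.5, 3254 and 4212. The C3H4 call was held without the poly-A scaling only. A gene known here by its description as zinc-finger protein 1, LOC_Os07g40080, had 53, 32.1 and 28.5 in TCP and 2040.4, 1970.3 and 2024 in MPGs, a held rise with an SD of 36.6 over the MPG arrays (n = 3).

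**Figure D3:**
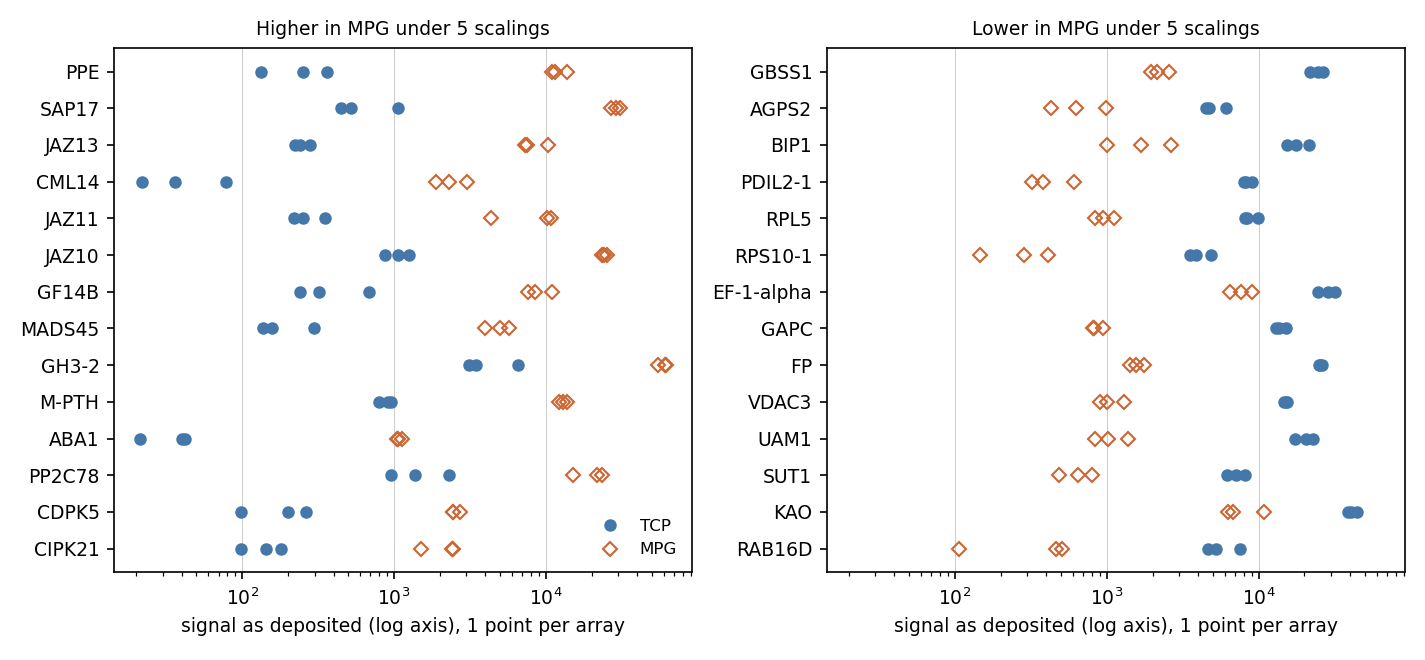
Signal as deposited (log axis) of 14 genes that rose and 14 that fell in MPGs under all 5 scalings, with a filled circle for each TCP array and an open diamond for each MPG array. The groups are separate in every gene shown; CML14 and ABA1 are under 100 in all TCP arrays, and the falls leave signals such as 1954 to 2549 for GBSS1.

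Water channels rose and fell within the family. PIP2;1, a plasma membrane aquaporin, was a held rise, but one MPG array stood apart: 35.6, 149 and 53 in TCP against 2014, 369 and 2544 in MPGs, and 2 further probe sets of the gene gave smaller rises of 1.36 and 1.05. PIP1;1 rose from 217, 69.3 and 119.9 to 1504, 986 and 1657. SIP2;1, a small basic intrinsic protein, rose from 9258, 11941 and 9789 to 104306, 110499.6 and 118703 (log2 3.43 ± 0.28). The calls of PIP1;1 and SIP2;1 were held without the poly-A scaling only. The tonoplast channel TIP4;1 rose by 3.35 in its brightest probe set, also held without the poly-A scaling only. Another probe set of TIP4;1 fell from a mean of 3598 to 1394, so the direction of the gene rests on the probe set. TIP2;2 fell from 38384, 47558 and 36609 to 8469, 9979 and 12554, under all 5 scalings. Over 8 bright aquaporin probe sets 4 rose and 4 fell (28.9% and 38.2% of all bright ones did), with a median log2 change of 0.78 as deposited and −0.88 with the hybridisation controls.

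Among the brightest transcripts of the grain, several known parts of the tube machinery rose in the deposited values but were not held. Of the 100 brightest probe sets of MPGs 99 rose as deposited, which choosing them by their MPG signal favours, and 0 were held rises. Of the 100 brightest of TCP, chosen in the opposite way, 66 rose and 11 fell, all 11 held, and 51 probe sets were in both sets. Among all probe sets with a brighter mean of 20000 or more, 64.5% rose, 18.6% were held falls and 3.84% were held rises. The 66 rises are thus near the share of any very bright probe sets. The pollen expansin EXPB9 was at 83530, 91449.8 and 57336 in TCP and 229806, 199547 and 225200.4 in MPGs, a log2 change of 1.52 as deposited, −0.24 with the hybridisation controls and −0.06 by quantiles. The actin-severing factor ADF9 (1.28 as deposited, −0.48 with the hybridisation controls), the actin RAC1 (1.12 and −0.64), the β-tubulin TUB8 (1.54 and −0.22) and the 14-3-3 protein GF14a (1.48 and −0.28) had the same pattern. None of these 5 transcripts was called a rise in the other 4 scalings. SWEET5 of the sugar exporters (1.85 and 0.09), the expansin EXP32 (2.03 and 0.27), SAP8 (1.91 and 0.15), CSLC9 of the cellulose synthase-like proteins (2.11 and 0.35), the potassium transporter HAK20 (2.53 and 0.77) and JAZ6 (2.18 and 0.42) were above 0 but under 1 with the hybridisation controls, and SWEET5, EXP32 and SAP8 were below 0 with the poly-A controls. A few further genes of the cytoskeleton, wall and cell cycle lists rose with the hybridisation controls too, but not with the poly-A controls, so they were not held. KIN7J, a kinesin, rose from 12369, 15947 and 11821 to 137786, 123725 and 128618, with a log2 change of 3.29 ± 0.22 as deposited and 1.53 with the hybridisation controls. FH11, a formin that nucleates actin, rose from 674, 845 and 898 to 6508, 5198 and 8314 (2.96 and 1.22). The expansin EXP5 rose from 545, 470.2 and 249.8 to 2675, 4272 and 3147 (2.89 and 1.16), and the D-type cyclin CYCD4-2 from 182, 150.4 and 52.8 to 941, 1018 and 1604 (2.84 and 1.17).

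The falls were broader and kept their direction in the scalings used for held calls, most of which lower MPGs against TCP. Ribosomal protein genes had 28 bright probe sets, of which 26 fell, all 26 held (92.9%, against 32.7% held falls among all bright probe sets), and 0 rose. Their median log2 change was −2.84 as deposited, −2.34 by quantiles and −4.35 with the hybridisation controls. RPL5, of the large subunit, fell from 8180.5, 9825 and 8434 to 941, 1124 and 838, and RPS10-1, of the small subunit, from 3857, 3537 and 4855 to 286, 147 and 413 (log2 −3.71 ± 0.25, adjusted p = 3.63e-10). RPL7A-1 and RPS4 fell with log2 changes of −3.29 and −3.46. Translation factors had 10 falls in 11 bright probe sets, 7 of them held (63.6%, against 32.7% of all bright ones). EF-1-alpha, the elongation factor that brings aminoacyl-tRNA to the ribosome, fell from 28707, 31928 and 24745 to 6444, 7594 and 9006, and the helicase eIF-4A-3 from 26596, 27949 and 24682 to 5465, 5151 and 6135. Both stayed bright in MPGs although they fell. One gene linked to translation was a held rise: M-PTH, by its name a peptidyl-tRNA hydrolase, went from 955, 919.7 and 799.9 to 12155, 13817 and 12888.

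Genes for folding, glycosylation and targeting in the endoplasmic reticulum gave 15 falls in 16 bright probe sets and 0 rises. Of the falls 14 were held (87.5% of the bright members, against 32.7% of all bright probe sets). BIP1, the luminal HSP70 chaperone, fell from 21415, 15261 and 17637 to 1668, 1001 and 2651. PDIL2-1, a protein disulfide isomerase-like enzyme, fell from 7953, 8308 and 9034 to 379.5, 323 and 609 (log2 −4.16 ± 0.31). SRP14 of the signal recognition particle and OST3 of the oligosaccharyltransferase fell with log2 changes of −3.61 and −3.46, and in both the MPG arrays were widely spread (43.1, 124 and 645.5 for SRP14, 39.5, 414 and 147 for OST3). Vesicle genes had 6 held falls in 8 bright probe sets (75.0%, against 32.7% of all bright ones). Among them copz1, a subunit of the COPI coat, fell from 4532, 5436 and 4364 to 308, 452 and 457, and SEC10, of the exocyst that tethers secretory vesicles, from 7128, 7244 and 7895 to 1456, 936 and 1694.

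Heat shock proteins were divided. The HSP90 genes HSP81-3 and HSP81-2 fell, HSP81-3 from 20141, 22266 and 15963 to 2330.2, 3419.6 and 3531, and the disaggregase CLPB-C fell from 2936, 3940.4 and 2951 to 163, 350.2 and 348. CLPD1, a Clp protein known from dehydration responses, rose as deposited from 2050.4, 1492 and 2165 to 7720.2, 7701 and 8059.9, with a change of 2.03 that was 0.29 with the hybridisation controls. Of 14 bright probe sets in this list 10 fell (71.4%) and 3 rose (21.4%), against 38.2% and 28.9% of all bright ones. Proteasome genes fell less: 6 of 10 bright probe sets fell as deposited (38.2% of all bright ones did). Of the 10, 0 were held falls, against 32.7% of all bright ones. With the hybridisation controls, the poly-A controls and the same median 9 of the 10 fell in each, whereas by quantiles 0 fell and 1 rose. The count of 0 held falls thus came from the quantile scaling. PBB1, a core subunit, changed by −1.33 as deposited and −0.77 by quantiles, and the ATPase RPT1 by −1.15 and −0.61.

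Mitochondrial genes gave 15 falls in 16 bright probe sets, with a median log2 change of −3.02. Of these falls 14 were held, 87.5% of the bright members against 32.7% of all bright probe sets. FP, the flavoprotein of succinate dehydrogenase, fell from 24951, 26096 and 25335 to 1422, 1559 and 1759 (log2 −3.97 ± 0.21, adjusted p = 2.57e-11). SDH3-2, a membrane anchor of the same complex, fell from 6478, 6476 and 6504 to 319, 468 and 765. VDAC3, a pore of the outer membrane, fell from 15050.2, 15393 and 14755 to 900.1, 1010 and 1295. The TCP replicates of these 3 genes lay within a few percent of one another. Glycolysis was mixed. GAPC, a cytosolic glyceraldehyde-3-phosphate dehydrogenase, fell from 12963, 15161 and 13533 to 826, 951 and 814, and GAPC3 from 40765, 48783 and 37440.1 to 10631, 10575 and 10312. The GAPDH 3′ probe set among the array's own controls moved likewise, from 9774, 10543 and 12510 to 1234, 1274 and 1326. The hexokinase HXK5 fell from 34109, 34714 and 33518 to 4450.3, 4243 and 6456, and PDC, a pyruvate decarboxylase of fermentation, by −1.27 in log2. Enolase, Eno1, rose as deposited from 48125, 53236 and 37202 to 91012, 92178 and 95476, but its change of 1.02 was −0.74 with the hybridisation controls and −0.45 by quantiles.

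All 6 bright probe sets of starch synthesis genes were held falls (32.7% of all bright ones were), with log2 changes from −4.37 to −2.63. They belong to 3 genes. Over all 16 tested probe sets of the list 6 fell and 3 rose as deposited. GBSS1, the granule-bound synthase of amylose, fell from 24662, 26642 and 21853 to 1954, 2549 and 2147, and its other bright probe sets fell by −4.37, −3.65 and −2.67, while one dim probe set of the gene, with group means of 102 and 367, rose by 1.52. AGPS2, the small subunit of ADP-glucose pyrophosphorylase, fell from 4713, 4495 and 6054 to 427, 628 and 986, and the synthase SS1 from 2951, 2845 and 2640.2 to 463, 362 and 418. The sucrose transporter SUT1 fell from 8139, 6231 and 7130.4 to 482, 799 and 650.2, and the monosaccharide transporter MST5 from 19362, 20827 and 23824 to 2541, 1143 and 2766, both held. SPS3F, a sucrose-phosphate synthase and no carrier, changed by 1.76 as deposited and 0.01 with the hybridisation controls. SUT1 and MST5 were both brighter in TCP than in BCP, where their means were 701 and 3302.

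Enzymes that make nucleotide sugars for wall polymers gave 5 held falls in 8 bright probe sets (62.5%, against 32.7% of all bright ones). UAM1, a UDP-arabinopyranose mutase, fell from 22867, 20609 and 17467 to 1374, 836 and 1014 (log2 −4.20 ± 0.25), UGE-4 from 7015, 7973 and 6357 to 471, 401 and 351 and UGE-2 from 32669, 24527 and 26976 to 4701, 5297 and 5151, the last 2 being UDP-glucose 4-epimerases. UGE-1 of the same family rose as deposited from 718, 651 and 685 to 2462, 3030 and 2502, with a log2 change of 1.88, also by quantiles, and 0.18 with the hybridisation controls. The cellulose synthases CESA3 and CESA8 were held falls too (log2 −1.82 and −2.33). Potassium carriers fell in 7 of 12 bright probe sets (58.3%, against 38.2% of all bright ones), 6 of them held (32.7% of all bright ones), and 2 rose as deposited but were not held. HAK3 fell from 5382, 5872 and 5851 to 35.2, 165 and 22.6, the largest fold of the family with a ratio of means of 76.9. A second probe set of HAK3 did not pass (log2 −0.86). HAK26 was a further held fall, with a log2 change of −3.24.

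Dehydrins and metallothioneins, small proteins linked to desiccation and to metal binding, had 0 rises among their 3 bright probe sets. All 3 were held falls (32.7% of all bright ones were) and belong to RAB16D and MT-2 only. Over all tested probe sets, dehydrins and late embryogenesis proteins had 3 rises and 1 fall as deposited, and metallothioneins had 2 and 2. RAB16D, a dehydrin, was the only bright member of its list and fell from 7568, 4668 and 5265 to 462, 106 and 510.5 (log2 −4.02 ± 0.80, adjusted p = 0.000387). MT-2, a metallothionein, fell from 68959.8, 73110 and 44177 to 11924, 9252 and 9075. PRXIIE-1, a type II peroxiredoxin, fell from 11187, 8796 and 10592 to 357, 546 and 607. Other large held falls were BGLU38, a β-glucosidase family member (34537, 40263 and 33001 to 1507, 1154 and 1607), YSL4, a yellow stripe-like metal carrier (22664, 21496 and 22141 to 700, 1234 and 1601), and ADK-B, by its name an adenylate kinase (2151, 2268 and 2460.3 to 71.2, 65.4 and 40). The largest named fall was LOC_Os10g41480, described as a phospho-2-dehydro-3-deoxyheptonate aldolase, the entry enzyme of the shikimate pathway, from 5751, 6377 and 4823 to 17.2, 124 and 13.8. Its MPG signals were under 200 in all 3 arrays.

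**Figure D4:**
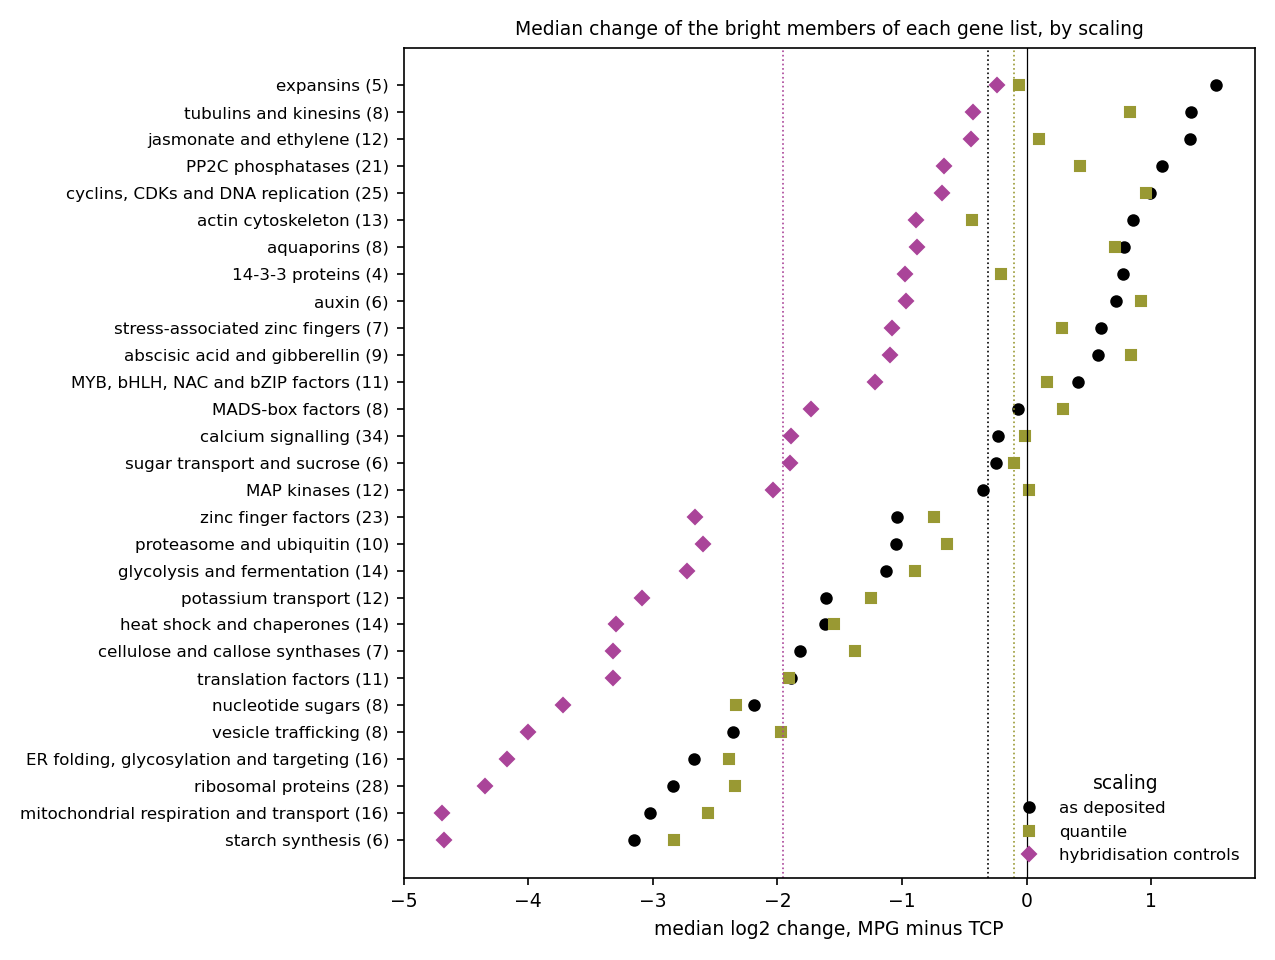
Median log2 change (MPG minus TCP) of the bright members of each gene list with at least 4 of them, their number in parentheses, under 3 scalings; dotted lines give the median of all bright probe sets in the same scaling. Starch, mitochondrial, ribosomal and endoplasmic reticulum genes lie at −2.67 or lower as deposited, and every plotted median is below 0 with the hybridisation controls, including that of the expansins (1.52 as deposited, −0.24).

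Because fold changes shift with the scaling, the share of an array's summed signal taken by each of 32 lists was also computed, which no scaling of a whole array changes. In 16 lists all 3 MPG shares lay below all 3 TCP shares, in 12 they lay above and in 4 they overlapped. Among single bright probe sets, 37.2% were apart upward and 47.0% downward as deposited. That is not the scale of the shares, which stand lower in MPGs because the mean signal was higher there (1770 against 1030). Single probe sets were not counted on the scale of shares, so the list counts have no like background. Ribosomal protein genes took 0.377%, 0.369% and 0.38% of the signal in TCP and 0.0638%, 0.0675% and 0.0631% in MPGs. Mitochondrial genes went from 0.402 ± 0.0077% (SD, n = 3) to 0.0446 ± 0.00499%, starch genes from 0.0939 ± 0.00158% to 0.00736 ± 0.000602%, and endoplasmic reticulum genes from 0.179 ± 0.0137% to 0.0212 ± 0.00192%. Starch genes thus had the largest ratio of the 32 lists, 12.8. The shares of some lists were higher in MPGs: auxin genes took 0.0321 ± 0.00339% and 0.0773 ± 0.00318%, tubulins and kinesins 0.212 ± 0.00567% and 0.38 ± 0.00482%, calcium signalling genes 0.72 ± 0.0515% and 1.31 ± 0.0788%, and MAP kinases 0.224 ± 0.0169% and 0.411 ± 0.00184%. The higher auxin share rested largely on GH3-2, with mean signals of 4378 in TCP and 58808.5 in MPGs. It does not describe the auxin genes as a group, and the list without GH3-2 was not examined. The stress-associated zinc fingers went from 0.16 ± 0.016% to 0.262 ± 0.00966%. Single bright members weigh heavily in such sums. SAP8 had means of 48327 in TCP and 180333 in MPGs, SAP17 677 and 28806, MPK10 19565 and 107806, and KIN7J 13379 and 130043. The shares of their lists therefore do not describe these lists as groups either. Actin genes (0.564%, 0.608% and 0.492% in TCP, 0.601%, 0.636% and 0.588% in MPGs) and 14-3-3 genes overlapped between the groups.

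**Figure D5:**
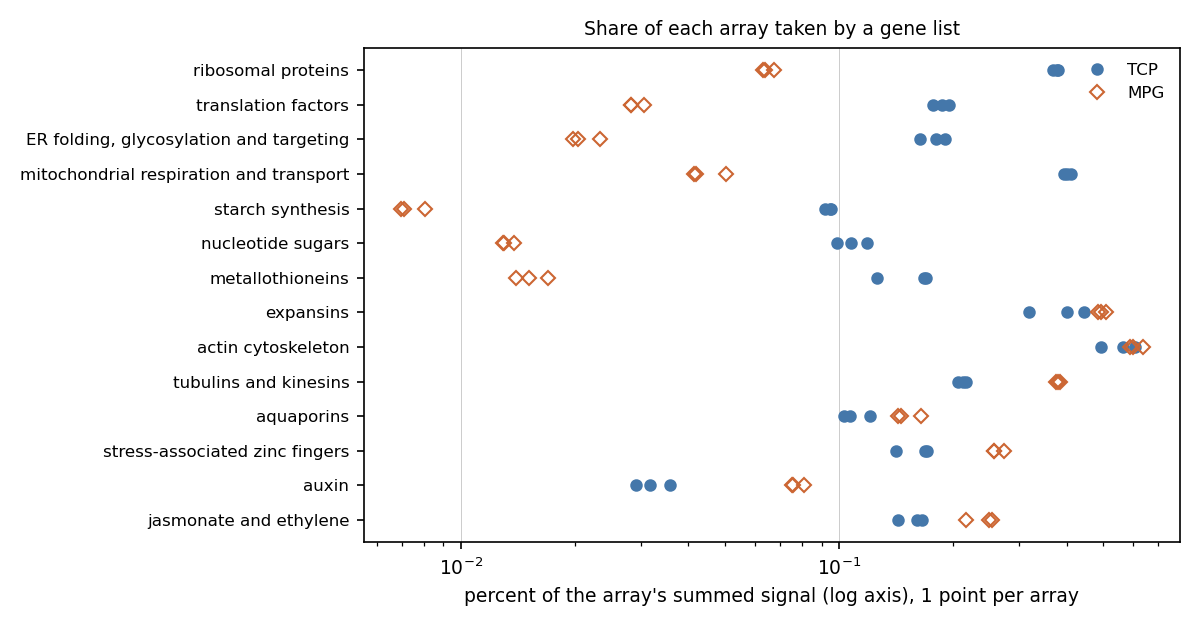
Percent of each array's summed signal (log axis) in 14 gene lists, with a filled circle per TCP array and an open diamond per MPG array. The ribosomal, translation, endoplasmic reticulum, mitochondrial, starch, nucleotide sugar and metallothionein shares are lower in all MPG arrays, those of tubulins and kinesins, aquaporins, stress-associated zinc fingers, auxin, expansin and jasmonate genes are higher, and actin overlaps.

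Levels at the other stages place these sets. The bright held rises had a median of 75.4 in BCP and 246 in TCP, compared with 7040 in MPGs and 7190 after germination, and 141 of the 164 were at 1000 or more in all germinated arrays. For the held falls the median went from 4440 in BCP and 2757 in TCP to 540 in MPGs and 503 in germinated grains. Of the held falls 2577 were at 1000 or more in every BCP array and 607 in every MPG array. In leaf, 56 of the 164 held rises were at 1000 or more in all arrays and 76 were under 200 in all arrays, compared with 1586 and 469 of the 2964 held falls. These medians use the deposited scale, and those of TCP and MPGs follow from how the sets were chosen. Single genes departed from this order: the PIP2;1 mean was 112 after germination, and COI1A was at 443 in BCP before it was bright in TCP.

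Where a gene had 2 or more bright probe sets, these mostly moved together. Of 493 such genes 294 had all their probe sets called in the same direction and 8 had both a rise and a fall. Of 204 genes with a held fall in one bright probe set 146 had it in all of them and 6 had a called rise in another. Of 15 genes with a held rise 0 had a called fall.

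The samples were checked for other cells and for RNA quality. Of 7 probe sets for tapetum and exine genes (named in the annotation as C6, CP1, CYP703A3, PTC1, RTS, TDR and the EAT1 gene BHLH141), the summed signal was 368 to 509.7 over the TCP arrays and 676 to 1364 over the MPG arrays, and 3 and 2 of them were under 100 in every array of the group. RTS, bright in uninucleate microspores with a mean of 12700, was under 100 in all 6 arrays. As deposited 2 of the 7 rose and 0 fell (27.0% and 11.9% of all tested probe sets did), and 0 were held. CYP703A3 went from 36.7, 37.1 and 65.3 to 44.3, 262 and 212 (log2 1.05). PTC1 went from 36.1, 54 and 145 to 365, 330 and 76.5 (log2 1.17). Leaf photosynthesis probe sets (8) summed to 690.7 to 1236 in TCP and 852 to 2427 in MPGs, with 4 and 2 under 100 throughout. The vegetative cell markers EXPB9, EXPB10, ADF9 and CML32 summed to 191600 to 273400 in TCP and 482500 to 512000 in MPGs. Names of sperm cell markers matched no probe set. For GAPDH the 3′ control probe set divided by the 5′ one gave 8.16, 4.78 and 5.17 in TCP and 7.04, 16.3 and 4.95 in MPGs, with overlap. For cyclophilin the quotient was 21.3, 1.77 and 3.08 in TCP and 2.19, 8.00 and 23.0 in MPGs, also with overlap. For actin this quotient was 1.69 ± 0.228 and 3.14 ± 0.688 (SD, n = 3) and for ubiquitin 0.55 ± 0.0401 and 0.917 ± 0.0802, both without overlap between the groups (exact permutation p = 0.1 each). The part of these ratios in the changes above was not tested.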

How the data were processed

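Signal intensities of 57258 rice and 123 control probe sets on 24 arrays were read from the values deposited by the authors, who made them from scanned arrays with GCOS and MAS5 according to the submitters' notes and scaled each array to a common target. Detection calls were not used. The labels give 5 µg and the study's methods another amount of total RNA. The 123 control probe sets were left out of the tests. limma 3.58.1 in R 4.3.3 was fitted to log2(signal + 50) over all 24 arrays with 1 mean per tissue, and p-values were adjusted over 47589 probe sets by the Benjamini-Hochberg method. A change was called at an adjusted p under 0.05 and 1 log2 unit. Group values are means ± SD of 3 arrays, and their small number limits the precision. Controls were the 9 hybridisation and 12 poly-A probe sets. Shares, exact permutation tests and figures were made with Python 3.11.15, pandas 2.3.3, numpy 2.4.6 and matplotlib 3.10.9. The code was tested on simulated data.

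Of the probe sets 22436 match 1 gene of the RefSeq annotation, 95 match several and 34727 match none. An informative symbol was found for 3193, and 1312 more have only a description, from the study's supplementary tables. Named genes were to be, with a mean of 1000 or more in TCP or MPGs, the 15 largest held rises and the 15 largest held falls, and up to 4 per gene list and direction, with the brightest probe set of each gene; this names more genes than are printed, and 109 were examined further, selected after their values were seen. The comparison, the gene lists and these members were chosen with earlier results of these data known, and the list of endoplasmic reticulum genes was added after values had been seen. A cystatin that shares the synonym CP1 was left out of the tapetum list. Promoter motifs had been planned and were not analysed here. Alternatives on scaling, offset, filter, arrays, variance model, pairing and left-out replicates are given in the closing section.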

Additional observations from a re-analysis of the deposited data

How the results depend on the processing

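Scaling moved the counts most. Over all tested probe sets the rises were 12852 as deposited, 637 with the hybridisation controls, 198 with the poly-A controls, 2995 with the same median and 6255 by quantiles, and the falls were 5641, 13262, 10892 and 9739 in the first 4 of these. Among bright probe sets rises were 2620, 430, 164 and 1073 and falls 3462, 5881 and 5476 in the same order. Over all tested probe sets the median log2 change was 0.55 as deposited, −0.44 with the hybridisation controls, −0.54 with the poly-A controls, −0.05 with the same median, 0.10 by quantiles and 0.76 when arrays were scaled to the median of bright probe sets; that of bright ones was −0.31, −1.96, −2.23, −1.25, −0.10 and 0.15. Of the gene lists, 15 had more bright falls than rises as deposited, 30 with the hybridisation controls, 31 with the poly-A controls and 25 with the same median. A floor of 200 left 4597 rises and a fit of only the 6 arrays 7619. The 164 bright held rises became 104 with that floor, 78 with only the 6 arrays and 430 without the poly-A scaling (added after the data had been seen). On leaving out 1 replicate they were from 79 to 515, the highest without MPG replicate 3 and the lowest without MPG replicate 1. The 2964 bright held falls stayed between 2487 (only the 6 arrays) and 3006 in these settings. Scaling to the median of bright probe sets was not used for held calls. Under it bright rises outnumbered bright falls, 3291 against 2682, the reverse of the deposited order. Some of the 2964 held falls were therefore not called under it.

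Of the 109 genes examined, 76 were held, and 1 of their 1368 values under the alternatives lost its call. Negative changes in genes that rose as deposited were found for EXPB9 (−0.24 with the hybridisation controls, −0.57 with the poly-A controls, −0.06 by quantiles), ADF9 (−0.48, −0.81, −0.28), RAC1 (−0.64, −0.97, −0.44), GF14a (−0.28, −0.61, −0.13), CML32 (−0.58, −0.91, −0.02), Eno1 (−0.74, −1.07, −0.45) and TUB8 (−0.22 and −0.55 with the controls), GA20OX3 (−0.12 and −0.41 with the controls), and with the poly-A controls for EXP32 (−0.06), SWEET5 (−0.24), SAP8 (−0.18), SPS3F (−0.32), UGE-1 (−0.07) and CLPD1 (−0.01). The cause of these shifts was not tested.

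Whether the replicate numbers pair the samples is not known. The deviations of same-numbered TCP and MPG arrays correlated at 0.0547, 0.00132 and 0.125, and those of the other pairs at −0.0946 to 0.0378. With the replicate block 12955 probe sets rose and 5644 fell, 2625 and 3465 of them bright, 243 bright rises and 2972 bright falls were held, and 1 of the 109 genes, JAZ12 (−1.47), lost its call. Signals under 100 are close to the floor of the array, so folds against them are imprecise.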
